A study of Mus musculus with 6 samples.

Results

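Chemokine and chemokine receptor transcripts were read across the cell classes of the mouse lung, from 6 droplet single-cell RNA-seq libraries. The members were the rows of the gene tables whose symbol was Ccl, Cxcl, Cx3cl, Xcl, Ccr, Cxcr, Cx3cr or Xcr followed by a number. Of 32285 genes, 62 matched, and the 51 with at least 20 UMIs (unique molecular identifiers, each standing for a captured transcript) over all classed cells were kept, 33 ligands and 18 receptors. Of the 11 rows below that minimum, 9 had 0 UMIs, and most of these were further copies of Ccl21, Ccl27 and Ccl19. Counts of Ccl21a, Ccl27a and Ccl19 are therefore uncertain, because reads shared with a near-identical copy can be lost or reassigned in counting. Cxcl5 was the remaining ligand below the minimum with more than a single UMI, at 16.

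The mice were wild-type C57BL/6N. Pups breathed room air (21% oxygen) throughout, or 95% oxygen over postnatal days 1 to 5 and room air afterwards, an exposure used as a model of oxygen injury to the immature lung. Lungs came from day 1 (room air only) and day 21 (room air, or after hyperoxia), and each library held sorted live cells from dissociated lungs of 3 pooled mice of the same sex. There was 1 female and 1 male library in each condition and no replicate library of a sex in a condition, so the sexes stood as the pair of libraries of a condition.

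Chemokines are small secreted proteins that guide migrating leukocytes along a gradient and, in the lung, also help to place cells in the growing vasculature. They act through membrane-spanning receptors coupled to inhibitory G proteins. Many ligands are induced by NF-kB or interferon signalling, whereas a few, such as Cxcl12, are made constitutively by stromal and endothelial cells. Receptors are largely carried by leukocytes and change as these cells mature or leave the marrow.

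The members lie in clusters on the mouse genome (GRCm38, GENCODE annotation, all protein-coding). Chromosome 11 held 14 members, among them Ccl2, Ccl7, Ccl11, Ccl12, Ccl8 and Ccl1 between positions 82035571 and 82305690, and Ccl5, Ccl9, Ccl6, Ccl3 and Ccl4 between 83525778 and 83664683. Chromosome 9 held 11 receptors and no ligand. Chromosome 5 held 8 ligands, with Cxcl3, Cxcl15, Cxcl1 and Cxcl2 between 90786103 and 90905938, Cxcl9 at 92321347 to 92328079 and Cxcl10 at 92346638 to 92348889.

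The 250 bases before the transcription start are shown for 4 ligands that recur in the comparisons of hyperoxia and age and in the interaction of sex with hyperoxia, to show how their upstream letters differ. The sequences and starts are from RefSeq on GRCm38.p6 and are written 5′ to 3′ on the strand of the gene. Cxcl10 (chr5:92348890-92349139, minus strand) and Cxcl9 (chr5:92328080-92328329, minus strand) are neighbours and textbook interferon-induced ligands of Cxcr3. Ccl9 (chr11:83578637-83578886, minus strand) is a myeloid ligand of Ccr1, and Cxcl2 (chr5:90903649-90903898, plus strand) is a neutrophil attractant. Capitals mark matches on either strand to the interferon-stimulated response element in Cxcl10 (GAAA, any 2 bases, GAAA) and to the kappa B site in Ccl9 and Cxcl2 (GGG, any 2 bases, TTTCC).
Cxcl10: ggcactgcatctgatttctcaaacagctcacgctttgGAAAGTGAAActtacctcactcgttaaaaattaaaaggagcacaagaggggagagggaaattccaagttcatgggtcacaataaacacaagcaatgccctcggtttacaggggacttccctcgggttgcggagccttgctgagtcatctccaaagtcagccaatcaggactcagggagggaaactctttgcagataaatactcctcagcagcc
Cxcl9: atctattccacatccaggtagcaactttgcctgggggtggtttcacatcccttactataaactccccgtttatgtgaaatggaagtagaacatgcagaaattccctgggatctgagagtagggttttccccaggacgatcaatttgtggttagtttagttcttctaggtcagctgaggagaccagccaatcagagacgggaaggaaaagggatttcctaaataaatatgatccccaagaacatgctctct
Ccl9: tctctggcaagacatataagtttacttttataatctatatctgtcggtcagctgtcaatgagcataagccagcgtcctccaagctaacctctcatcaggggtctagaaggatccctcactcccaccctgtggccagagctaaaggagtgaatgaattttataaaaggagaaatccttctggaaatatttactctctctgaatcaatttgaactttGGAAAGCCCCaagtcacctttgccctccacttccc
Cxcl2: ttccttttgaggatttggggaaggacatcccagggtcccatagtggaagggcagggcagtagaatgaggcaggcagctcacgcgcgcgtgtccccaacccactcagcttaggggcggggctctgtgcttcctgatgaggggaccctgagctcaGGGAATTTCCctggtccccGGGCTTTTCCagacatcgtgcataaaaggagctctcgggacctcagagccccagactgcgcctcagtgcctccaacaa
In Cxcl10 the match began 213 bases before the RefSeq start. Cxcl2 held a pair of kappa B matches, at 97 and 78 bases before its RefSeq start, and Ccl9 held 1 on the opposite strand, at 35 bases. The GENCODE annotation starts Cxcl2 earlier, at position 90903871, so the end of its window lies within that gene model and the distances do not hold for that start. The Cxcl9 window held no match to these letters or to the interferon-gamma-activated site (TTCNNNGAA).

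The RefSeq promoter table held 39 of the 51 members. The kappa B letters were present upstream of 6 of these (15.4%: Ccl20, Cxcl3, Cxcl1, Cxcl2, Ccr3 and Ccl9), beside 1.65% of the 27025 genes in the table. The response element was present in 3 (7.69%: Ccl19, Cxcl10 and Cxcl14), beside 3.46% of all genes. The activated site was present in 3 (7.69%: Ccl17, Cxcl14 and Ccr6), beside 8.13%. Only these spellings were searched for, so other forms of a site, in Cxcl10 or elsewhere, were not counted. Cxcl3, Cxcl1 and Cxcl2 are neighbours of the same family, so the kappa B share is not one of independent genes. A match describes letters only and is not evidence of binding.

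The cell classes are those in the authors' deposited annotation, 31 classes over 55882 cells, of which 30 held at least 50 cells. Between 22.0% and 32.8% of the barcodes of a library had no class, and the libraries held 122173482 to 163649658 UMIs. The doublet caller marked 1.31% to 10.9% of cells, most in the female day 1 library. In the female library after hyperoxia, 56.2% of classed cells held an Xist UMI, against 77.2% and 84.4% in the other female libraries and at most 0.195% in the male ones, so where leaving out its cells lacking Xist changed the call of a pair named by the rule, the value is given beside it. Per the file headers the day 1 libraries were made with Cell Ranger 6.0.0 and the day 21 libraries with 7.0.1. Software version and age therefore cannot be told apart.

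Levels are UMIs of the gene per 1000000 UMIs of the class (CPM), given for the female and then the male library of a condition. A class sum cannot tell more cells holding a transcript from more transcript per cell. The classes were formed by the authors from the transcripts of the same cells, so levels by class are a description with no test. Levels are compared for the same gene, not between genes. Unless said otherwise, shares of a gene's UMIs count only those in classed cells (classed UMIs).

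Of the 33 ligands, 18 were highest in an immune class, 8 in a mesenchymal class, 5 in an endothelial class and 2 in an epithelial class. Of the 18 receptors, 17 were highest in an immune class and 1, Ccr9, in Prolif T Cells. At least 50% of the classed UMIs lay in 1 class for 30 members, and 8 members stood at least 10 times above the next class. The class of highest level was the same for 47 of the 51 members with doublets left out, for 50 with the brightest cell of each library and class left out, and for 43 when the median of the libraries was used.

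**Figure D1:**
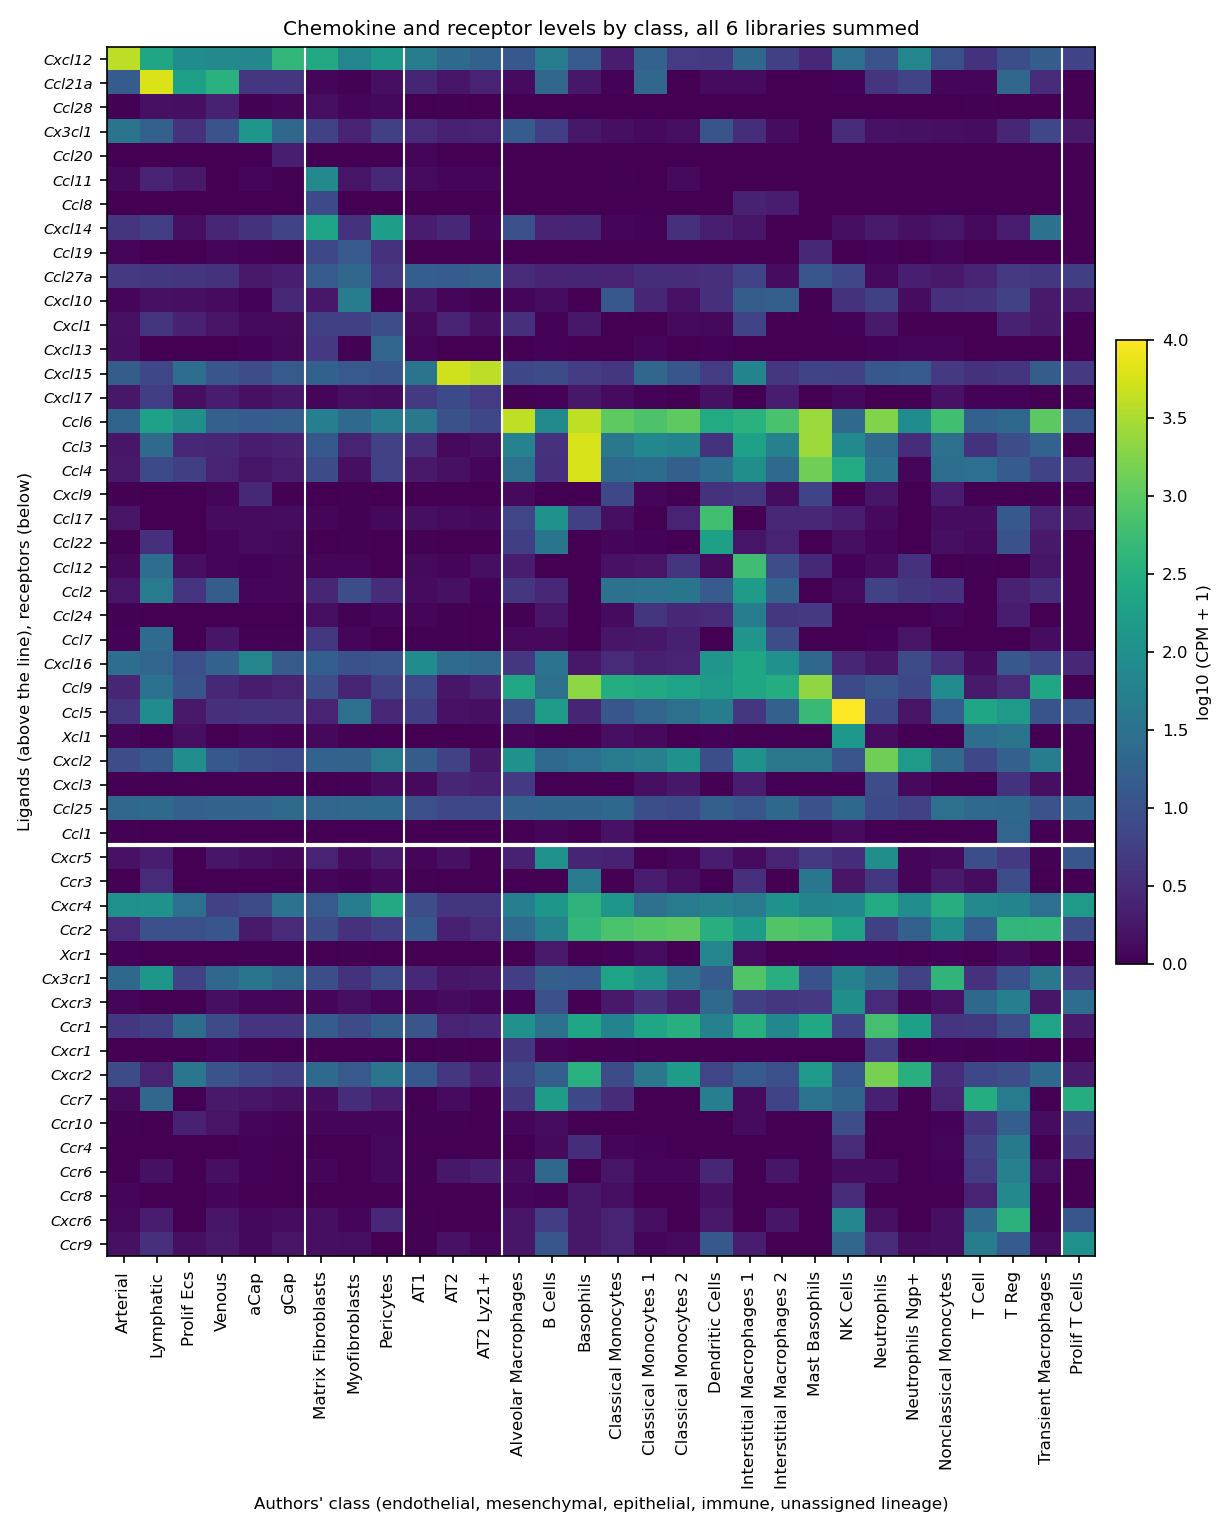
Level of 50 of the 51 members (rows, ligands above the white line and receptors below) in the 30 classes of at least 50 cells (columns, grouped by lineage), as log10 of CPM plus 1 with counts summed over the 6 libraries. The brightest cells of the receptor rows lie in the immune columns, apart from Ccr9, whereas those of the ligand rows are spread over endothelial, mesenchymal, epithelial and immune columns.

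Among the ligands highest in an endothelial class, Cxcl12, the ligand of Cxcr4 that retains haematopoietic cells and patterns vessels (chr6:117168535-117181367), stood at 3927 CPM in Arterial cells, 8.76 times the next class, gCap (general capillary cells). Arterial Cxcl12 was 4457 and 4456 at day 1, 4010 and 3403 in day 21 room air, and 3426 and 3851 after hyperoxia. In gCap it was 203 and 230, then 520 and 470, then 500 and 565. Every Arterial library was above every gCap library.

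Cx3cl1, the membrane-anchored ligand of Cx3cr1 (chr8:94772009-94782427), was highest in aCap, the aerocyte capillary class, at 124 CPM with 62.9% of its UMIs. Arterial cells followed at 34.0 and gCap at 20.8. Ccl21a, which guides Ccr7-bearing cells into lymphatics, was highest in the Lymphatic class at 6072 CPM, 17.2 times the Venous class. In the Lymphatic class, present at day 21 only, Ccl21a was 8346 and 14876 in room air and 2948 and 6199 after hyperoxia. With doublets left out it was 9693 and 16881, then 11960 and 15277, and the conditions overlapped. The doublet caller left 18 of 23 and 29 of 36 Lymphatic cells in room air and 22 of 64 and 33 of 54 after hyperoxia. The 4 lymphatic markers Prox1, Lyve1, Mmrn1 and Pdpn summed to 3053 and 3405, then 1336 and 1900 in all cells, and to 3540 and 3864, then 4158 and 4060 without doublets. The class was too small to be tested.

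Among the ligands highest in a mesenchymal class, Ccl11, an eosinophil attractant, led in Matrix Fibroblasts (75.8 CPM, 40.1 times the next class, 88.8% of its UMIs). Cxcl14, a homeostatic chemokine of connective tissue, was highest there too at 210 CPM, with Pericytes next at 169. Cxcl13, the B cell attractant of lymphoid tissue, was highest in Pericytes at 19.5 CPM with 65.7% of its UMIs. Pericytes held 21.3 and 9.66 CPM of Cxcl13 at day 1, 27.6 and 29.7 in day 21 room air, and 17.4 and 17.6 after hyperoxia. The day 1 libraries overlapped the hyperoxia pair.

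In the epithelium, Cxcl15, a lung-restricted chemokine also named lungkine, was at 5201 CPM in AT2 cells and at 4016 in the day 1 class AT2 Lyz1+. AT2 levels were 3617 and 5091 at day 1, 5698 and 4663 in day 21 room air, and 5963 and 5995 after hyperoxia. Day 1 and day 21 room air overlapped, and both hyperoxia libraries were above the other 4, but the male room air library at day 21 held only 7 AT2 cells and the class was not tested. In the female day 1 library 11 of 54 AT2 cells were left without doublets, at 2724 CPM. Cxcl16, the membrane-bound ligand of Cxcr6, had more of its UMIs in AT1 cells (27.1%) than in any other class, although its highest CPM was in Interstitial Macrophages 1 (IM1), at 225.

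In the myeloid classes, IM1 led for Ccl2, Ccl7 and Ccl12, the Ccr2 ligands that draw monocytes, and for Ccl24, an eosinophil attractant. Ccl12 was at 590 CPM in IM1, 22.6 times the next class and with 87.0% of its UMIs there. In the day 1 libraries, with 102 and 139 IM1 cells, Ccl12 was 774 and 541, Ccl2 was 164 and 203, and Ccl7 was 131 and 137. At day 21 IM1 held 6 to 8 cells per library, which is too few to read.

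Ccl3 and Ccl4, inflammatory ligands that draw monocytes and lymphocytes, were highest in Basophils, a class labelled at day 21, at 5741 and 5760 CPM. The day 1 class Mast Basophils was next for both, at 2550 and 1348. Basophil Ccl3 was 5835 and 6167 in room air. After hyperoxia it was 3158 and 2778, from 5 and 2 cells, so no change can be read. Ccl9 was highest in Mast Basophils (2160 CPM) with Basophils next at 2067, and Ccl6, a related myeloid ligand, was at 4190 in Alveolar Macrophages and 4155 in Basophils.

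Dendritic Cells, also a day 21 class, led for Ccl17 (616 CPM, 78.4% of its classed UMIs) and Ccl22 (187 CPM, 71.7%), both ligands of Ccr4. They also led for the receptor Xcr1, which marks cross-presenting dendritic cells (66.3 CPM, 72.0 times the next class, 94.3%). Barcodes without a class held 62.7%, 65.4% and 70.4% of all UMIs of these genes, in that order. NK Cells led for Ccl5, a T cell attractant stored in cytotoxic lymphocytes (9917 CPM, 19.3 times the next class, 90.3%), and for Xcl1, the ligand of Xcr1 (135 CPM). The NK class also held T cell markers, whose sum was 1100 to 1712 CPM beside 5858 to 9887 for the NK markers. Neutrophils led for Cxcl2 (1368 CPM, 9.93 times the next class, 78.4%) and for its receptor Cxcr2.

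Several low ligands were concentrated in single cells. A single cell held 94.8% of the UMIs of Ccl20, 59.4% of those of Ccl1, 46.0% of those of Ccl8 and 26.0% of those of Cxcl9. These ligands were highest in gCap, T Reg, Matrix Fibroblasts and Classical Monocytes, in that order. Ccl1 in T Reg was 2.81 and 2.23 in room air and 52.4 and 7.19 after hyperoxia, and 79.5% of the UMIs behind the value of 52.4 came from 1 cell. Ccl28, Cxcl17, Cxcl3 and Cxcl1 were at most 7.68 CPM in any class with the 6 libraries summed.

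Among the receptors, Cxcr2, which brings neutrophils out of the marrow and into tissue, was highest in Neutrophils. It stood at 1507 CPM there, 4.42 times the next class, with 86.0% of its UMIs. The neutrophil level was 1242 and 1266 at day 1, 1743 and 1747 in day 21 room air, and 1491 and 1308 after hyperoxia. These ranges did not overlap between conditions, but the hyperoxia change did not pass the test given below. The share of all genes that separate in this way was not computed, so the separation says little by itself. Ccr1, a receptor of Ccl3, Ccl5, Ccl6 and Ccl9, was also highest in Neutrophils at 665 CPM.

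Ccr2, which carries classical monocytes out of the marrow, was highest in the day 1 class Classical Monocytes 2 at 970 CPM, then in Classical Monocytes 1 at 867 and in Interstitial Macrophages 2 at 816. Cx3cr1, the patrolling monocyte and macrophage receptor (chr9:119901616-120069879), was highest in IM1 at 806 CPM and next in Nonclassical Monocytes at 410, which held 42.2% of its UMIs. Cxcr4 was highest in Basophils (398 CPM), then Nonclassical Monocytes (308) and Neutrophils (279). It was also present in structural cells, at 232 to 340 CPM in Pericytes and 64.3 to 155 in Arterial cells.

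Lymphoid receptors were ordered by T and B cell classes. The T Reg class led for Ccr8 (74.5 CPM, 38.0 times the next class, 89.0% of UMIs), Cxcr6 (377), Ccr6 (53.6), Ccr4 (40.7) and Ccr10 (15.1). That class held the regulatory T cell markers Foxp3 (33.0 to 65.7 CPM), Ctla4 (233 to 413), Il2ra (255 to 295) and Ikzf2 (610 to 674). Its T cell markers summed to 1581 to 2165. It also held Gata3 (322 to 375), Il1rl1 (308 to 385), Rora (697 to 867) and Areg (20.1 to 73.5), used as markers of type 2 innate lymphoid cells. Its receptors therefore cannot be given to regulatory T cells alone. The T Cell class led for Ccr7, the lymph node homing receptor, at 297 CPM. Ccr9, the thymus and gut homing receptor, was at 101 in Prolif T Cells and 48.4 in the T Cell class.

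Cxcr5, the follicle-homing receptor of B cells (chr9:44511787-44561877), had its highest level in B Cells at 109 CPM. Of its classed UMIs, 67.7% lay in Neutrophils, where the level was 98.7. Barcodes without a class held 5307 Cxcr5 UMIs, beside 5325 in classed cells. The classes of highest level can be set side by side for a few textbook pairs, picked by hand: Cxcl12 in Arterial cells and Cxcr4 in Basophils (with Cxcr4 also in Arterial cells, as above), Cx3cl1 in aCap and Cx3cr1 in macrophages and monocytes, Ccl17 and Ccl22 in Dendritic Cells and Ccr4 in T Reg, Ccl21a in Lymphatic cells and Ccr7 in the T Cell class. Cxcl2 and Cxcr2 shared the Neutrophils. No binding or signalling was measured.

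At day 21 the hyperoxia libraries were set against those of room air, more than 2 weeks after the pups had returned to room air. In Classical Monocytes Cxcl10 rose, under every alternative run. Its neighbour Cxcl9 fell there, but in the male room air library all of its UMIs lay in 1 cell and DESeq2 did not call it. Ccl9 rose in Alveolar Macrophages and Nonclassical Monocytes under every alternative and in Classical Monocytes under 6 of 11. Ccr2 fell (7 of 11) and Cxcr4 rose (4 of 11, lost on leaving out any 1 library) in Classical Monocytes, and Cxcr5 fell in Neutrophils (9 of 11). Arterial Cxcl12, capillary Cx3cl1 and fibroblast Cxcl14 did not pass the test. In 14 classes with at least 50 cells in all 4 libraries, 263 pairs of a member and a class were tested. The test was edgeR's quasi-likelihood test, with sex as a covariate and Benjamini-Hochberg adjustment over all genes of the class. For hyperoxia and age, each alternative that left out 1 library also left out the sex covariate. A call lost in such a run therefore cannot be laid to the library alone.

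Of the 263 pairs, 33 passed at an adjusted p of 0.05 (12.5%), 19 higher and 14 lower, from 18 of the 43 members tested. Over all genes, 2.28% of pairs passed, 1.63% higher and 0.654% lower. At an unadjusted p under 0.05 there were 76 pairs. The median log2 change of the members was 0.03, beside 0.00 over all genes. Ligands gave 20 calls among 154 pairs (13 higher) and receptors 13 among 109 (6 higher). DESeq2 called 8, of which 6 were higher and 7 were shared. Without the female or the male room air library the count was 50. Of the 33 calls, 26 lay in a class where the member was more than 4-fold below its highest class.

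Calls per class were uneven. Classical Monocytes gave 10 of 18 members tested (6 higher), where 1.76% of all genes passed. Nonclassical Monocytes gave 7 of 19 (4 higher), where 6.03% passed, and Alveolar Macrophages gave 5 of 24 (3 higher), where 10.9% passed. Neutrophils gave 3 of 24, all lower, where 0.95% passed. No member was called by edgeR in Matrix Fibroblasts, NK Cells, the T Cell class or T Reg, where 5, 5, 1 and 5 had an unadjusted p under 0.05. In these classes edgeR called few or no genes of any kind: 15 in Matrix Fibroblasts (0.144%) and 0 in each of the other 3, and those with an unadjusted p under 0.05 numbered 832, 961, 172 and 289. DESeq2 called 0, 33, 1 and 1 genes there, of which 1 was a member, Xcl1 in the T Cell class.

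Cxcl10 in Classical Monocytes was at 11 and 16 UMIs in room air and 92 and 123 after hyperoxia, or 1.26 and 3.33 CPM against 21.6 and 32.4. Both hyperoxia libraries were above both room air libraries. The log2 change was 3.66 (SE 0.275, edgeR adjusted p = 3.40e-29), and all 11 alternatives called it (adjusted p from 6.79e-39 to 1.98e-04, log2 2.99 to 4.44). A single cell gave 31.2% to 46.7% of each library's UMIs, and with the brightest cells left out the log2 change was 3.51. The promoter printed above for Cxcl10 holds the interferon-stimulated response element letters.

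Cxcl9 in the same class had 39 and 93 UMIs in room air, and 4 and 0 were left after hyperoxia, with no overlap. The log2 change was −4.35 (SE 0.516, adjusted p = 9.67e-13). In the male room air library, however, all 93 UMIs (100%) came from 1 cell, and with the brightest cells left out Cxcl9 could not be tested. DESeq2 did not call it (adjusted p = 1.000, range over alternatives 3.41e-20 to 1.000), and without the male room air library the log2 change was −3.08.

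**Figure D2:**
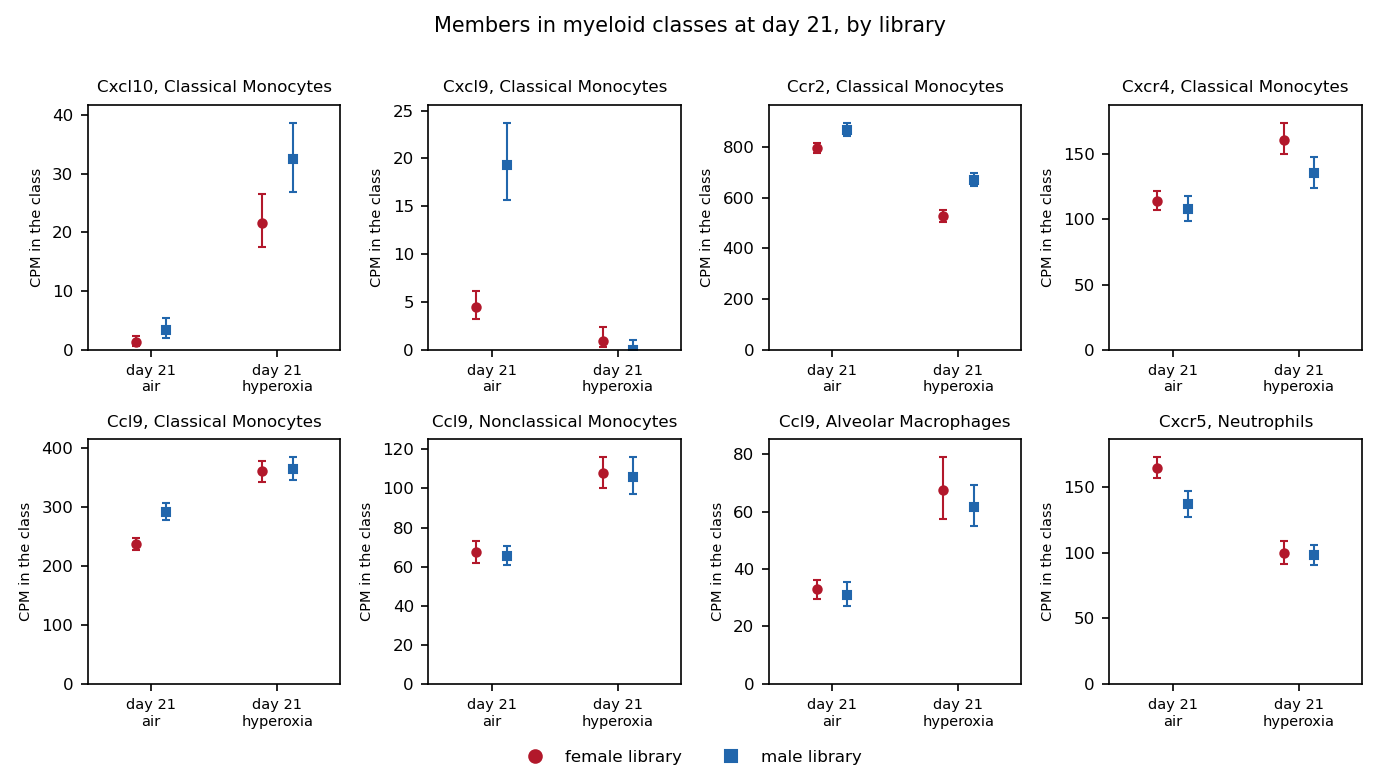
CPM in day 21 room air and after hyperoxia for Cxcl10, Cxcl9, Ccr2, Cxcr4 and Ccl9 in Classical Monocytes, Ccl9 in Nonclassical Monocytes and Alveolar Macrophages, and Cxcr5 in Neutrophils (circle female, square male, bars exact Poisson 95% intervals of the count). The hyperoxia points lie above the room air points for Cxcl10, Cxcr4 and Ccl9 and below them for Cxcl9, Ccr2 and Cxcr5.

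Of 12 interferon-gamma targets tested in Classical Monocytes 5 were called, all lower, among them Gbp2, an interferon-induced GTPase (28.1 and 108 CPM, then 31.2 and 29.5, overlapping). Over all classes 37 of 158 pairs of that list were called, 36 lower. The median log2 change of the list was −0.40, and gCap held 10 of the lower calls, Arterial 8 and Nonclassical Monocytes 7. Of 12 genes that dissociation induces, 3 were higher in Classical Monocytes, and their part in the Cxcl10 value was not tested.

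Ccr2 in Classical Monocytes was 796 and 867 CPM in room air and 527 and 671 after hyperoxia (chr9:124101950-124113557). The ranges did not overlap. The log2 change was −0.46 (SE 0.0786, adjusted p = 3.49e-06), and 7 of 11 alternatives called it (adjusted p from 1.06e-07 to 0.963). The call was lost without the female hyperoxia library (−0.28) and without the male room air library (−0.36), under DESeq2 and without the sex covariate.

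Cxcr4 in Classical Monocytes was 114 and 108 CPM in room air and 161 and 136 after hyperoxia (chr1:128588199-128592293). The change of 0.44 (SE 0.0963, adjusted p = 0.00118) was called by 4 of 11 alternatives (0.00160 to 1.000) and was lost on leaving out any 1 of the 4 libraries (log2 0.32 to 0.54). Other calls in the class were chosen for mention after their values were seen. Ccr1 fell (72.4 and 67.1, then 39.9 and 55.8, log2 −0.55, edgeR adjusted p = 0.00153), called by 6 of 11 alternatives (0.00124 to 1.000). It was lost without the female hyperoxia (−0.29) or female room air library (−0.50), with doublets left out, with no sex covariate and under DESeq2. Ccl3 rose (34.7 and 22.7, then 42.9 and 66.9, 0.90, adjusted p = 6.27e-07), called by 7 of 11 (6.79e-08 to 1.000). It was lost without the male hyperoxia library (0.55) and under the same 3 other settings. Basophil markers summed to 3.55 to 7.27 CPM in these libraries of Classical Monocytes, against 3580 and 4055 in room air Basophils.

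In Nonclassical Monocytes the patrolling receptor Cx3cr1 was 447 and 425 CPM in room air and 368 and 383 after hyperoxia. Its change of −0.25 (SE 0.0625, adjusted p = 0.0340) was called by 2 of 11 alternatives (0.00935 to 0.683) and lost on leaving out any 1 library (log2 −0.21 to −0.28) or the Xist-free cells of the female hyperoxia library (−0.22, adjusted p = 0.0509). Cxcr4 there was 285 and 281, then 372 and 328, with a change of 0.27 (SE 0.0685, adjusted p = 0.0367). It was called by 6 of 11 alternatives (0.00413 to 0.716) and lost without the female hyperoxia (0.19), male hyperoxia (0.35) or male room air library (0.28). Neither pair of ranges overlapped. Ccr2, chosen after its values were seen, fell in this class as well (102 and 96.5, then 55.5 and 86.9, log2 −0.55, edgeR adjusted p = 0.0253). It was called by 8 of 11 alternatives and lost without the female hyperoxia library (−0.22), with no sex covariate and under DESeq2.

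Ccl9 (chr11:83572919-83578636), singled out after its values were seen because it was called in 3 classes, rose in each. In Alveolar Macrophages it was 32.9 and 31.1 CPM in room air and 67.5 and 61.7 after hyperoxia (log2 0.96, SE 0.128, edgeR adjusted p = 4.06e-06). Nonclassical Monocytes went from 67.4 and 65.6 to 108 and 106 (0.66, SE 0.0789, adjusted p = 3.45e-04). Both were called by all 11 alternatives. Classical Monocytes went from 237 and 292 to 360 and 364 (0.48, SE 0.0871, adjusted p = 1.45e-05), called by 6 of 11 and lost without the female hyperoxia (0.49), female room air (0.30) or male hyperoxia library (0.45), with no sex covariate and under DESeq2. Room air and hyperoxia libraries did not overlap in any of the 3 classes. Of the 12 dissociation genes, 10 were higher in Alveolar Macrophages, 4 in Nonclassical Monocytes and 3 in Classical Monocytes after hyperoxia, and their part in the Ccl9 values was not tested.

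In Neutrophils, Cxcr5 was 165 and 137 CPM in room air and 100 and 98.0 after hyperoxia, with no overlap. The change was −0.64 (SE 0.105, edgeR adjusted p = 0.0306), and 9 of 11 alternatives called it (5.79e-07 to 0.152). It was lost without the female room air library (−0.50, adjusted p = 0.152) and with the Xist-free cells of the female hyperoxia library left out (adjusted p = 0.0691). Ccl4, chosen after its values were seen, fell (55.0 and 45.0, then 18.8 and 16.4, log2 −1.54, adjusted p = 0.00593). With the 6 libraries summed, Ccl4 was at 31.1 CPM in Neutrophils, far below the 5760 in Basophils. Basophils numbered 74 and 57, then 5 and 2. With doublets left out the log2 change of Ccl4 in Neutrophils was −1.32 and was still called. Whether free RNA from Basophils had a part in this fall was not tested. The main neutrophil pair did not pass: Cxcr2 changed by −0.36 on the log2 scale (SE 0.104, adjusted p = 0.189) and Cxcl2 by −0.04 (adjusted p = 0.952). Among the markers of the class, Retnlg was 5529 and 5250 CPM in room air and 9260 and 10592 after hyperoxia. Csf3r was 3366 and 3601, then 3220 and 2748, whereas S100a8 and S100a9 overlapped. The part of the make-up of the class in the Cxcr5 value was not tested.

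Structural cells held their main ligands at values that did not pass the test. The log2 change of Arterial Cxcl12 was −0.01 (edgeR adjusted p = 0.997), of Cx3cl1 in aCap 0.11 (adjusted p = 0.961), of Cxcl14 in Matrix Fibroblasts 0.04 (adjusted p = 0.988) and of Ccl19 in Myofibroblasts −0.08 (adjusted p = 0.988). Ccl11 in Matrix Fibroblasts was 91.7 and 162 CPM in room air and 55.6 and 28.7 after hyperoxia, without overlap, but its change of −1.55 (SE 0.324) had an adjusted p of 0.0929. Col1a1, a fibroblast collagen, was 4425 and 5790, then 2519 and 1519 in the same cells, and Col3a1 was 5400 and 6387, then 3224 and 1508. The other fibroblast markers overlapped: Pdgfra was 673 and 626, then 592 and 711, and Tcf21 was 498 and 571, then 450 and 522.

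Cxcl12 was called higher in 5 classes where it is low, and these were singled out after their values were seen. In aCap it was 51.1 and 47.4 CPM in room air and 87.8 and 85.8 after hyperoxia (log2 0.82, SE 0.091, adjusted p = 0.00479, called by all 11 alternatives). With doublets left out that change was 0.52. In Alveolar Macrophages it was 2.79 and 2.87, then 27.9 and 46.3, a log2 change of 3.59 that became 0.95 and was not called with doublets left out (2.87 and 2.83, then 1.26 and 10.4). Arterial markers in that class summed to 53.1 and 56.0 CPM in room air and 96.6 and 88.3 after hyperoxia, and without doublets to 52.4 and 55.0, then 53.0 and 54.7. The other 3 calls were each lost under several settings. In B Cells (3.72) 7 of 10 alternatives called it, and it was lost without either room air library (3.58 and 4.08) and with no sex covariate. With doublets left out Cxcl12 was not among the genes tested in B Cells, so that setting is not in the count. In Nonclassical Monocytes (1.83) 7 of 11 called it, and it was lost with doublets left out (0.63), without the male hyperoxia library (0.87), with no sex covariate and under DESeq2. In Myofibroblasts (1.82) 3 of 9 called it, and it was lost with the brightest cells left out (1.13), without the male hyperoxia (0.89) or either room air library (1.35 and 2.45), with no sex covariate and under DESeq2. Cxcl12 had no value in Myofibroblasts with doublets or with Xist-free cells left out.

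Dendritic Cells were not tested because the male hyperoxia library held 14 of them, beside 234, 107 and 143 in the others. Ccl22 was 7.17 and 31.5 CPM in room air and 594 and 527 after hyperoxia, and a single cell gave 25.7% to 85.3% of a library's UMIs. Ccl17 was 397 and 228, then 1287 and 716, and Ccr7, which mature dendritic cells use to reach lymph nodes, was 0.614 and 35.2, then 129 and 312. For these 3 genes, picked by hand, both hyperoxia libraries were above both room air libraries. The share of all genes that separate in this way in the class was not computed, so the separation says little by itself. Xcr1 overlapped, at 59.8 and 89.0, then 59.9 and 69.9. Of the dendritic markers that are not members, Flt3 was 189 and 197, then 186 and 226, and Cd209a, which marks a subset of conventional dendritic cells, was 690 and 480, then 627 and 167. The lowest Cd209a value was that of the 14-cell library, and the part of the make-up of the class in these values was not tested.

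**Figure D3:**
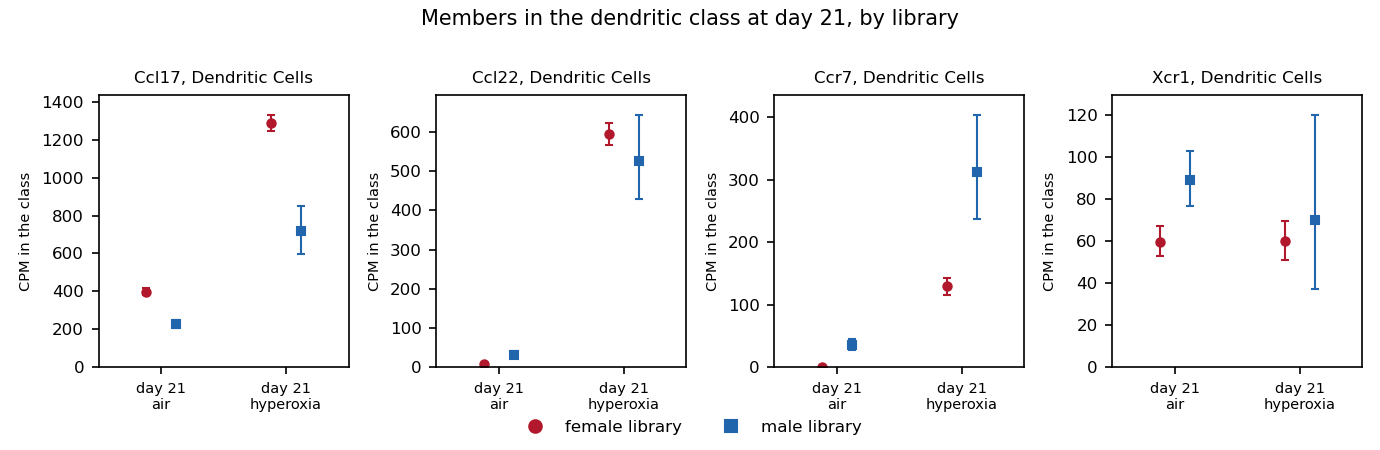
CPM of Ccl17, Ccl22, Ccr7 and Xcr1 in Dendritic Cells in day 21 room air and after hyperoxia (circle female, square male, bars exact Poisson 95% intervals of the count). The hyperoxia points lie above the room air points for Ccl17, Ccl22 and Ccr7 and overlap them for Xcr1, where the male hyperoxia value comes from 14 cells.

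The lists of other pathway genes are read beside the 2.28% called over all genes. Of 166 pairs of a class and a receptor signalling or desensitisation gene, 2 were called after hyperoxia (1.20%), 1 higher and 1 lower. Of 126 pairs of NF-kB feedback genes, 10 were called (7.94%), 7 higher, with a median log2 change of 0.04. Of 46 pairs of atypical receptors and platelet chemokines, 6 were called (13%), 4 higher, with a median of −0.06. Ackr3, the scavenging receptor of Cxcl12, was 16.3 and 17.4 CPM in aCap in room air and 29.2 and 24.3 after hyperoxia (log2 0.68, edgeR adjusted p = 0.0410). That call was made by 8 of 11 alternatives and lost without the female hyperoxia library (0.54), with no sex covariate and under DESeq2. Dissociation genes gave 29 calls among 160 pairs (18.1%), 28 of them higher.

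Age was compared in room air, day 21 against day 1, in the 10 classes with at least 50 cells in all 4 libraries. Capillary Cx3cl1 and Cxcl16, fibroblast Cxcl14, myofibroblast Ccl19 and neutrophil Cxcr5 rose with age. Ccl9, Cxcl2, Ccl3 and Cxcl3 fell in Alveolar Macrophages, as did Cxcl10 in Myofibroblasts and the dendritic ligands read in the B Cells class. Of 172 pairs, 130 passed edgeR's test (75.6%), 58 higher and 72 lower, from 35 of 39 members tested. Over all genes 54.3% of pairs passed, 28.6% higher and 25.7% lower, so a call by itself says little here.

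The median log2 change was −0.38 for the members and 0.01 for all genes. At an unadjusted p under 0.05 there were 134 pairs, and DESeq2 called 76, all among the 130. Of the calls, 93 lay in a class more than 4-fold below the member's highest class. The naming rule gave 25 pairs by size of change from the 34 that met it, and others are marked as chosen after their values were seen.

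In aCap, Cx3cl1 was 22.1 and 10.7 CPM at day 1 and 129 and 137 at day 21. The log2 change was 2.94 (SE 0.200, edgeR adjusted p = 9.04e-47), and all 10 alternatives called it (log2 2.52 to 3.53). Cxcl16 in aCap went from 14.0 and 11.4 to 68.1 and 83.9 (2.48, SE 0.210, adjusted p = 1.01e-30), also called by all 10. After hyperoxia Cx3cl1 was 156 and 129, so all 4 day 21 libraries were above the day 1 pair. In Arterial cells Cx3cl1 rose from 10.9 and 8.65 to 44.1 and 50.2 (2.15, SE 0.247, adjusted p = 1.07e-09).

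Cxcl12, chosen after its values were seen, differed among the endothelial classes. It rose in gCap from 203 and 230 CPM to 520 and 470 (log2 1.07, edgeR adjusted p = 2.96e-11) and in Venous cells from 28.6 and 51.1 to 124 and 106 (1.45, adjusted p = 2.10e-07). It fell in Arterial cells from 4457 and 4456 to 4010 and 3403 (−0.37, adjusted p = 0.00619), a call lost without the female day 21 (−0.48), male day 1 (−0.33) or male day 21 library (−0.23). In aCap it was 22.1 and 123 at day 1 and 51.1 and 47.4 at day 21, so the day 1 pair spanned day 21, and it was not called (−0.37, adjusted p = 0.0625). The scavenging receptor Ackr3 fell in aCap from 176 and 150 to 16.3 and 17.4 (−3.36, adjusted p = 8.98e-77). Ccl25, a thymic ligand of Ccr9, rose in Arterial cells from 9.52 and 13 to 22.7 and 24.3 (0.97, edgeR adjusted p = 0.00265). That call was lost without the female day 1 library (0.71) and under DESeq2 (0.198). With the 6 libraries summed, Ccl25 was present in every class shown, from 5.19 CPM in Neutrophils Ngp+ to 28.9 in Nonclassical Monocytes. The rises named here and below in B Cells, NK Cells and Alveolar Macrophages are therefore not read as particular to those classes. The part of free RNA or software version in them was not tested.

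Ccl21a in Venous cells, chosen after its values were seen, fell from 482 and 954 CPM to 0 and 1.71 (fitted log2 −9.80). From the summed counts, 2355 UMIs at day 1 and 1 at day 21, the level was 970 times as high at day 1 (exact 95% interval 174 to 38347, counting error only). The lymphatic markers Prox1 (70.8 and 56.2, then 0 and 0) and Mmrn1 (193 and 249, then 1.27 and 0) were lower beside it in the same class, as was Pdpn (20.6 and 25.9, then 0 and 0). Lyve1, the most abundant of the 4 lymphatic markers there, was 1622 and 1848, then 1584 and 1500. No Lymphatic class was labelled at day 1, and the part of lymphatic cells in the Venous value was not tested.

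In Matrix Fibroblasts, Cxcl14 (chr13:56288643-56296551) was 50.7 and 65.5 CPM at day 1 and 340 and 319 at day 21. The ranges were well apart, and the log2 change was 2.35 (SE 0.182, edgeR adjusted p = 2.77e-09, called by all 10 alternatives). In Pericytes, which were not tested because the male room air library at day 21 held 46 cells, Cxcl14 was 0 and 1.76 at day 1, 346 and 481 at day 21 and 199 and 214 after hyperoxia.

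In Myofibroblasts, Ccl19 (chr4:42754525-42756577) went from 0.413 and 0.912 CPM to 56.4 and 66.3 (log2 6.51, SE 0.446, edgeR adjusted p = 1.73e-11, called by all 10 alternatives). Cxcl10 had 320 and 507 UMIs there at day 1 (33.0 and 116 CPM) and 0 and 0 in day 21 room air. That is at least 33.7-fold lower, taking 3 counts over the group as the floor. Cxcl10 was called at an adjusted p of 8.07e-11 (range over alternatives 4.56e-43 to 0.141) and was lost under DESeq2 (0.141) and without the male day 21 library (0.0653). The largest single cell gave 15.2% of a day 1 library's Cxcl10 UMIs. Markers of this class stood beside it: Tagln, of contractile cells, went from 2668 and 2274 to 750 and 999, and Hhip, of alveolar duct myofibroblasts, from 891 and 806 to 6252 and 5936.

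**Figure D4:**
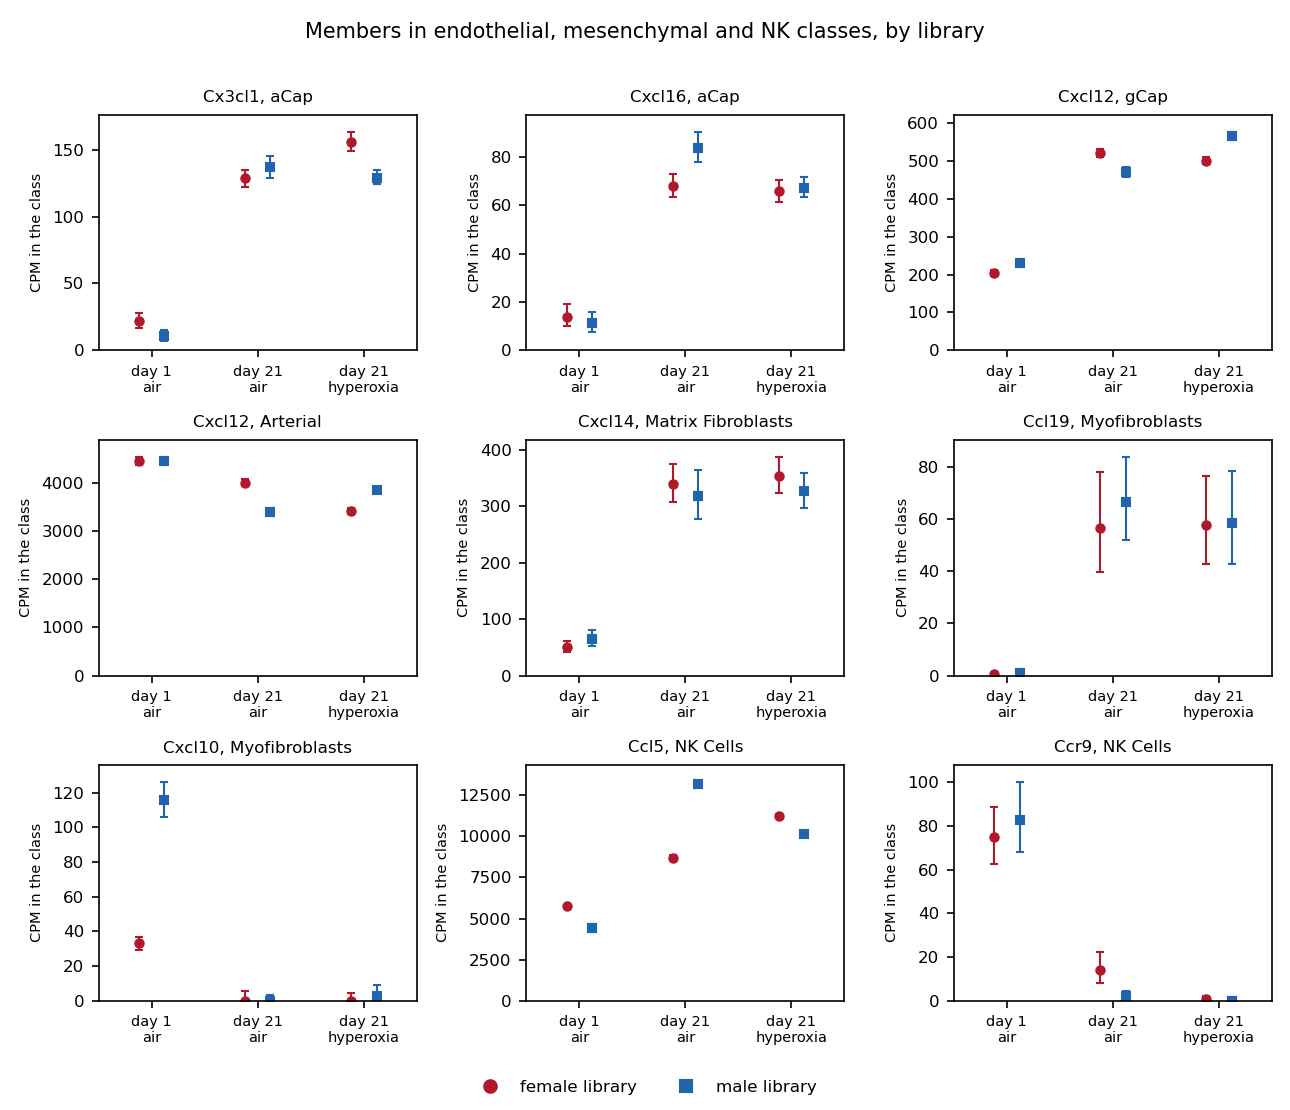
CPM at day 1 in room air, day 21 in room air and day 21 after hyperoxia for 9 pairs of a member and a class (circle female, square male, bars exact Poisson 95% intervals of the count). Cx3cl1 and Cxcl16 in aCap, Cxcl14 in Matrix Fibroblasts and Ccl19 in Myofibroblasts lie higher in all 4 day 21 libraries than at day 1, whereas Cxcl10 in Myofibroblasts is seen at day 1 and is near 0 at day 21.

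In the B Cells class 17 of 20 members tested were called with age, 5 higher and 12 lower, where 48.9% of all genes were called. Among the lower ones were the myeloid receptors Ccr2 (log2 −6.03) and Ccr1 (−3.05), and also Cxcr3 (−3.86), chosen after their values were seen. With the 6 libraries summed, Cxcr3 was highest in NK Cells at 96.8 CPM, with T Reg next at 49.8. It was 22.9 in Dendritic Cells and 21.3 in the T Cell class. Cxcr5 rose from 13 and 6.53 CPM to 202 and 130 (log2 3.91, edgeR adjusted p = 4.54e-06) and Cxcr4 from 47.1 and 39.9 to 153 and 161 (1.68, adjusted p = 1.22e-04). Ccr6 rose from 11.6 and 10.9 to 29.2 and 25.8 (1.11, adjusted p = 0.0185), which was lost without either day 1 library (0.0709 and 0.0796), with doublets left out (0.0584) and under DESeq2 (0.332). Ccl25 rose from 7.51 and 4.35 to 25.6 and 14.2 (1.55, adjusted p = 0.0112). That call was lost without the male day 1 (log2 1.24, adjusted p = 0.0819) or female day 21 library (1.15, 0.0945) and under DESeq2 (0.257).

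The dendritic ligands fell in B Cells, Ccl22 from 152 and 110 CPM to 0 and 0.507 (log2 −8.55, edgeR adjusted p = 2.19e-06) and Ccl17 from 470 and 324 to 11.7 and 0.507 (−6.42, adjusted p = 5.71e-06). From the summed counts, Ccl22 was 441 times as high at day 1 (375 UMIs, against 1 at day 21, exact 95% interval 78.7 to 17467, counting error only). A single cell gave 56.5% and 80.3% of the day 1 Ccl22 UMIs, and 27.0% and 43.2% of those of Ccl17. All 16 Ccl17 UMIs of the female day 21 library lay in 1 cell, and the log2 change was −9.49 without that library, −10.27 with doublets left out and −11.71 with the brightest cells left out (range over alternatives −11.71 to −5.26, all 10 called). Cxcl16 fell from 109 and 122 to 2.92 and 3.04 (−5.41, adjusted p = 3.15e-06). No Dendritic class was labelled at day 1. The summed dendritic markers of the B Cells class were 248 and 205 at day 1, against 16.1 and 7.09 at day 21. Ccl22 and Xcr1 are members too, and Ccl22 gave 152 and 110 of the day 1 sums. Of the markers that are not members, Flt3 was 36.9 and 39.2, then 16.1 and 5.57, and Cd209a was 56.7 and 50.8, then 0 and 0.507. Its B cell markers were 3268 and 2067, then 7343 and 8022. The part of dendritic cells in these values was not tested.

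In NK Cells, Ccl5 (chr11:83525778-83530518) was 5735 and 4397 CPM at day 1, 8707 and 13164 in day 21 room air and 11238 and 10138 after hyperoxia. Every day 21 library was above the day 1 pair. The log2 change with age was 0.86 (SE 0.174, edgeR adjusted p = 0.00164) and was lost without the male day 1 library (0.71, adjusted p = 0.0910) and under DESeq2 (0.413; range over alternatives 7.59e-25 to 0.413). Ccr9 fell from 74.8 and 82.9 to 13.9 and 2.05 (−3.99, adjusted p = 1.45e-05), and all 10 alternatives called it (log2 −6.96 to −2.78). All UMIs of the female day 21 library lay in 1 cell. The change was −6.96 with the brightest cells left out, −5.39 without the female and −2.78 without the male day 21 library. Ccl25 rose by 1.03 (adjusted p = 0.0487), which only 4 of 10 alternatives called. Markers of the class also differed with age. Trac went from 19.5 and 10.8 to 209 and 132, Ncr1 from 117 and 109 to 271 and 660 and Prf1 from 42.4 and 51.9 to 330 and 530. Trbc2 fell from 973 and 1023 to 735 and 676, and Gzma overlapped (7023 and 8316, then 4882 and 7992). The part of the make-up of the class in these values was not tested.

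In Alveolar Macrophages 19 of 25 members tested were called, 14 of them lower at day 21 than at day 1, where 53.8% of all genes were called. Cxcl3, a neutrophil attractant, went from 35.3 and 7.78 CPM to 0.0845 and 0.431 (log2 −6.89, edgeR adjusted p = 5.26e-10), with 44.4% and 52.0% of the day 1 UMIs in a single cell of each library. Ccl6 went from 5577 and 9354 to 3825 and 3333 (−1.37, adjusted p = 0.0184). Both were called by all 10 alternatives.

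Chosen after their values were seen, Ccl9 in Alveolar Macrophages fell from 1166 and 1225 CPM to 32.9 and 31.1 (log2 −5.57), Cxcl2 from 778 and 381 to 22.7 and 18.7 (−5.10) and Ccl3 from 332 and 185 to 13.3 and 10.9 (−4.74). Ccr2 (−4.60) fell as well, and all 10 alternatives called each of these 4. Cxcr1, a neutrophil receptor gene, had 0 UMIs at day 1 and 59 and 28 at day 21, at least 8.49-fold higher against a floor of 3 counts over the group (edgeR adjusted p = 1.06e-04). Ccl25 rose by 1.26 (adjusted p = 0.00113), a call lost under DESeq2 (0.0938). Chil3, a marker of mature alveolar macrophages, was 269 and 155 at day 1, against 10566 and 8039 at day 21. The other markers of the class moved less or overlapped. Ear1 was 85.5 and 81.8, then 390 and 409, and Krt79 was 14.8 and 26.4, then 246 and 248. Marco overlapped, at 155 and 341, then 270 and 265. All 12 dissociation genes tested in this class were called, 10 of them lower, and their part in these values was not tested.

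In Neutrophils, Cxcr5 rose from 1.53 and 1.76 CPM to 165 and 137 (log2 6.38, SE 0.209, edgeR adjusted p = 7.64e-30), called by all 10 alternatives. Cxcr1 rose from 0.436 and 0.880 to 3.23 and 4.32 (2.37, adjusted p = 2.43e-04), a call that DESeq2 did not make (0.0845). Cxcl3 fell from 19.6 and 14.5 to 4.40 and 1.44 (−2.62, adjusted p = 6.60e-11). Of the dissociation genes, 6 of 12 were called in this class, 5 of them higher, beside 63.6% of all genes. Markers of the class differed with age too. Retnlg went from 14345 and 16883 to 5529 and 5250, and Csf3r from 1263 and 1211 to 3366 and 3601. S100a8 went from 55510 and 55727 to 47209 and 44244, and S100a9 from 79500 and 83040 to 69758 and 66006. The part of the make-up of the class in these values was not tested.

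Among the other lists, beside 54.3% over all genes, interferon-gamma targets gave 86 calls among 110 pairs with age, 80 of them higher, with a median log2 change of 1.18. NF-kB feedback genes gave 55 of 89 (39 higher), receptor signalling genes 59 of 116 (33 higher) and atypical receptors with platelet chemokines 22 of 35 (9 higher). Dissociation genes gave 83 of 115, 69 of them lower.

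Sex was compared over all 6 libraries with condition as a covariate, in 10 classes. Of 197 pairs 2 passed edgeR's test (1.02%), both higher in the female libraries, beside 0.105% over all genes (0.0452% higher and 0.0603% lower), and in both nearly all UMIs of the female hyperoxia library lay in a single cell. At an unadjusted p under 0.05 there were 38 pairs, and DESeq2 called 0. Ccl21a in Arterial cells was 3.88 and 0.393 CPM at day 1, 0 and 0 in day 21 room air and 73.8 and 0 after hyperoxia, and 100% of the UMIs behind the value of 73.8 lay in 1 cell. Ccl5 in Myofibroblasts was 38.3 and 0.228, then 1.57 and 4.61, then 157 and 2.55, and 99.2% of the UMIs behind 157 lay in 1 cell. Without the male hyperoxia library the Ccl21a difference fell from 7.74 to 2.98 on the log2 scale and was not called. The Ccl5 difference was 5.04, and 4.48 without the female hyperoxia library. Ccl21a was called by 8 of 10 alternatives and Ccl5 by 8 of 9. Neither pair had a value with the brightest cells left out, so these counts hold no run with that cell alone removed. Ccl21a also had no value without the female hyperoxia library, and Ccl5 none with doublets or with Xist-free cells left out. Leaving out 1 library gave 8 to 22 calls, and neither pair met the rule for naming.

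The interaction asked whether the difference between the sexes after hyperoxia departs from that in room air of both ages. Of 225 pairs 17 passed edgeR's test (7.56%), 6 higher and 11 lower in the female hyperoxia library relative to the fit, beside 0.428% over all genes (0.142% higher and 0.286% lower). At an unadjusted p under 0.05 there were 60 pairs. DESeq2 called 2 (1 higher), and with the brightest cells left out 6 were called. Of the 17 calls, 15 lay in a class where the member was more than 4-fold below its highest class. The 5 pairs with the smallest adjusted p lay in aCap and Venous cells. Cxcl9 in aCap stood 3.34-fold below its highest class, and the others stood 123-fold (Cxcl2 in Venous cells) to 1881-fold (Ccl21a in aCap) below.

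In aCap, Cxcr2 was 28.8 and 13.9 CPM at day 1, 8.99 and 0.355 in day 21 room air, and 2.16 and 5.87 after hyperoxia. The female library was the higher in room air at both ages and the lower after hyperoxia, and the interaction was −3.46 (SE 0.526, edgeR adjusted p = 3.48e-08). Cxcl2 was 51.2 and 22.8, then 10.0 and 1.07, then 2.33 and 4.35, with an interaction of −2.69 (adjusted p = 2.42e-05). With doublets left out these became 1.22 and 0.26. The neutrophil markers S100a8, S100a9, Csf3r and Retnlg summed in aCap to 1430 and 673, then 414 and 62.2, then 57.9 and 427 CPM, and without doublets to 376 and 540, then 98.9 and 62.3, then 36.4 and 70.1. In Neutrophils the same sum was 118945 to 156861.

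**Figure D5:**
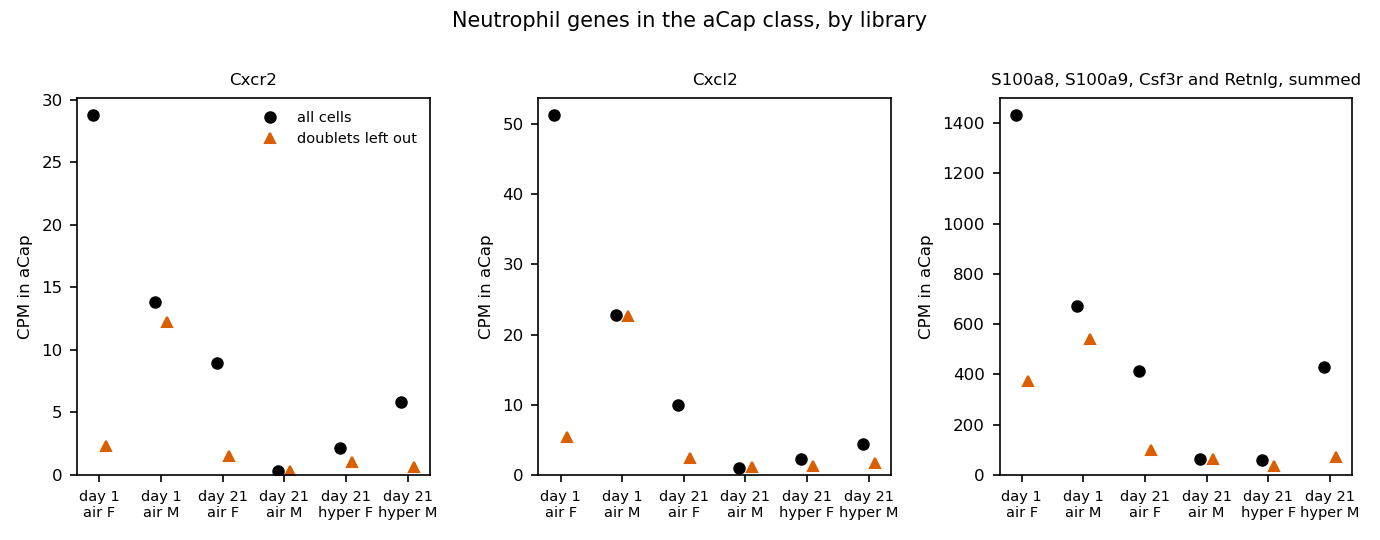
CPM in aCap of Cxcr2, Cxcl2 and the sum of the neutrophil markers S100a8, S100a9, Csf3r and Retnlg in the 6 libraries, with all cells (circles) and with doublets left out (triangles), without intervals. All 3 quantities are lower without doublets in every library but the male day 21 room air library.

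The other named interactions had most of their UMIs in single cells. Cxcl9 in aCap had 0, 0, 0, 83, 17 and 0 UMIs in the female and male libraries of day 1, day 21 room air and hyperoxia, and 88.0% of the 83 and 94.1% of the 17 lay in 1 cell. Ccl21a in aCap had 143 UMIs in the female hyperoxia library, 98.6% in 1 cell. Cxcl2 in Venous cells had 31, 1, 2, 0, 0 and 40 UMIs, with 87.5% of the 40 in 1 cell. DESeq2 called none of the 5.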

How the data were processed

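Libraries were made with the 10x Chromium 3′ v3.1 kit from live sorted lung cells of 3 pooled mice, per the labels' protocols. The deposited values are UMI counts per gene and barcode, which the authors aligned and counted against mm10 with Cell Ranger (6.0.0 at day 1 and 7.0.1 at day 21, per the file headers); whether intronic reads were counted is not given in the sources used here. Cell classes are the authors' deposited annotation, and the submitters' processing notes name Seurat 4.1.1. Barcodes without a class were left out of all comparisons.

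From these counts, UMIs were summed per library and class. Each comparison used edgeR 4.0.16 in R 4.3.3 (TMM scaling, filterByExpr, glmQLFit and glmQLFTest) over all genes of a class, given 50 or more cells in each library, with Benjamini-Hochberg adjustment per class and a threshold of 0.05. Residual degrees of freedom were 1, or 2 for sex. P-values measure only the spread between these pooled libraries, and Poisson intervals (95%) cover counting error only. Scrublet, run with scanpy 1.11.5 on all barcodes, marked doublets, which were kept in the reported values. Alternative settings used DESeq2 1.42.0, scaled by the upper quartile, kept low counts unfiltered, left doublets out, left out the brightest cell of each library and class or the Xist-free cells of the female hyperoxia library, dropped the covariate, dropped 1 library at a time and, added after seeing the data, used only day 21 libraries for sex. For hyperoxia and age, the runs that dropped 1 library dropped the sex covariate too.

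In simulated counts with 100 genes changed 2-fold and 100 changed 4-fold, edgeR recovered, of the 2-fold genes, 87% in gCap and 55% in the T Cell class for hyperoxia, 82% in gCap for age, 95% in gCap for sex and 56% in gCap for the interaction, among 14241, 12089, 13646, 14301 and 15006 genes, with 9, 9, 1, 3 and 11 false calls in the same runs. Of the 4-fold genes it recovered 99%, 86%, 100%, 100% and 91%. For hyperoxia it recovered 77% of the 2-fold genes in Neutrophils and 72% in Alveolar Macrophages, with 13 and 10 false calls. The changed genes were drawn only from those with a mean of at least 20 counts per library, so recovery of lower genes is not known. No doublets or bright single cells were simulated, and Classical Monocytes were not among the classes simulated.

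A pair of a member and a class was named with full values where it was called, held 20 or more UMIs in both libraries on its higher side, moved the same way in both sexes and stood no more than 4-fold below the member's highest class, with the 25 largest changes kept. For the interaction, the 5 smallest adjusted p-values were kept. The members and gene lists were chosen with earlier results of these data known. Lymphatic, Dendritic, Basophil, Pericyte and Interstitial Macrophages 1 cells were too few in some library to be tested. The values of 1 member are not reported here.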

Additional observations from a re-analysis of the deposited data

Results flagged for a closer look

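For 5 pairs edgeR called the interaction, the difference between the sexes after hyperoxia against that in room air of both ages. That test sets 1 female against 1 male hyperoxia library with 1 residual degree of freedom, and DESeq2 called none of the 5. The log2 interaction was, as fitted, 15.79 for Cxcl9 in aCap (adjusted p = 6.46e-13), 6.36 for Ccl21a in aCap (3.94e-08), −3.46 for Cxcr2 in aCap (3.48e-08), −2.69 for Cxcl2 in aCap (2.42e-05) and −12.83 for Cxcl2 in Venous cells (5.59e-08). From the day 21 libraries alone, with a prior count of 0.5, the log2 ratio of ratios was 13.32, 6.42, −5.87, −4.05 and −7.88. The first, second and last of the 5 had at least 87.5% of the UMIs of their highest library in 1 cell, and the Cxcr2 and Cxcl2 values in aCap changed sign with doublets left out.

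A further signal lay in barcodes to which the authors gave no class, which no comparison used. Of the UMIs of Ccl8, 73.4% (174 of 237) were in those barcodes. Over 50% was also found there for Xcr1 (70.4%), Ccl22 (65.4%), Cxcl17 (63.4%), Ccl17 (62.7%), Cxcl15 (61.5%), Ccr9 (53.4%), Ccr6 (51.9%) and Ccr7 (50.1%). The levels and shares by class describe the remaining UMIs of these genes.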

How the results depend on the processing

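Over the alternatives to the named pairs, 352 values in all, 296 kept their direction and their side of the threshold, 54 kept the direction but were no longer called and 2 changed sign. Those 2 were the aCap interactions of Cxcr2 (1.22) and Cxcl2 (0.26) with doublets left out. For hyperoxia the 33 calls became 8 with DESeq2 (6 higher), 76 with no filter on low counts and 12 with no sex covariate. Leaving out each library gave 31 to 50 calls (50 without the female or the male room air library), and with doublets left out 13 of 28 calls were higher, against 19 of 33. For age, the 130 calls became 76 with DESeq2 and 110 to 128 on leaving out each library. For sex, the 2 calls became 0 with DESeq2, 28 with no filter, 1 with the brightest cells left out, 1 without Xist-free cells, 0 with no condition covariate, 6 in the day 21 libraries only (added after seeing the data) and 8 to 22 on leaving out each library. For the interaction, the 17 calls became 2 with DESeq2 and 6 with the brightest cells left out, and it could not be refitted with a library left out. The cause of these changes was not tested. Without a filter more pairs were tested (573 against 263 for hyperoxia, 441 against 197 for sex). The reported hyperoxia and age fits hold sex as a covariate, which pairs the libraries of a sex, and without it the calls were 12 and 124. The hyperoxia and age runs that left out a library lacked this covariate too. No paired analysis was possible because the replicate number is the same in all libraries, apart from that pairing by sex. Counts limit some values to 1 cell: Cxcl9 in Classical Monocytes could not be tested with the brightest cells left out.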

Other observations

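Cx3cr1, the receptor of Cx3cl1, had more UMIs at day 21 than at day 1 in several classes where it is low, chosen after the values were seen. It was 2.59 and 0.816 CPM in gCap at day 1 and 21.3 and 22.2 at day 21 (log2 3.49), and the log2 difference was 3.34 in Arterial cells, 3.31 in aCap, 3.68 in Venous cells and 4.48 in Neutrophils, but −0.55 in Alveolar Macrophages and −1.17 in B Cells. Nonclassical Monocytes, which hold the largest share of its UMIs, numbered 32 and 11 cells at day 1 and 924 and 984 in day 21 room air. No background from free RNA was measured, its part in these low levels was not tested, and they are not read as expression in those classes. Cxcl16, the ligand of Cxcr6, was 79.6 and 92.9 CPM in AT1 cells at day 1, 56.6 and 148 in day 21 room air and 203 and 122 after hyperoxia, from 14 to 57 AT1 cells per library at day 21, so the ranges overlapped and no test was made. Xcl1 in NK Cells was 104 and 93.8 CPM at day 1, 154 and 177 in day 21 room air and 117 and 138 after hyperoxia, and 61.8% of the UMIs of the female day 1 library were in 1 cell. In Neutrophils, Cxcl2, picked by hand, had an interaction of −0.78 (edgeR adjusted p = 0.00278). It was 1930 and 1254 CPM at day 1, 1513 and 999 in day 21 room air and 1155 and 1299 after hyperoxia. The female library was the higher in room air at both ages and the lower after hyperoxia. Of the 871 Neutrophils of the female hyperoxia library, 92 held an Xist UMI. The alternative settings are not given for this pair.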
